A study of Mus musculus with 8 samples.

Results

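The miR-15/16 seed family, with miR-195, miR-497, miR-322 and miR-503, is a set of microRNAs (miRNAs) that begin with nearly the same bases, and it was followed here across 8 small RNA libraries of mouse spinal cord. Its 8 members, of the 1396 mature miRNAs in the deposited table, were taken by name: 7 miRNAs of the 5p arm (mmu-miR-15a-5p, mmu-miR-15b-5p, mmu-miR-16-5p, mmu-miR-195a-5p, mmu-miR-497a-5p, mmu-miR-322-5p and mmu-miR-503-5p) and mmu-miR-322-3p, the other arm of the Mir322 hairpin. The bone cancer pain group had 4 libraries of left spinal cord from C57BL/6 mice that received LL/2 cells, a mouse lung carcinoma line, in the intramedullary space of one femur, on the left. The sham group had 4 libraries of left spinal cord from C57BL/6 mice that received saline in the same place. The labels give neither age and sex nor the time between injection and sampling, and nothing in them says that each library came from its own animal, so the spread between libraries may be technical. The family was proposed when the group difference of miR-15a-5p and miR-195a-5p was already known. The differences of the members between bone cancer pain and sham are therefore given as a description with their SE. The counts of calls given for the members come from the fit across all miRNAs and support nothing about the family.

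A miRNA guides Argonaute proteins to messenger RNAs by pairing its seed, bases 2 to 8 counted from the 5′ end, with the target. miRNAs that share a seed can repress largely the same targets, whichever gene they come from. The miR-15/16 seed is known as a brake on the cell cycle, with cyclins D and E, Cdc25a and Bcl2 among its studied targets. The Mir15a and Mir16-1 genes lie in Dleu2, a long non-coding RNA gene lost in many chronic lymphocytic leukaemias. The Mir15b and Mir16-2 genes lie in Smc4, which encodes a subunit of the condensin complex. miR-195 and miR-497 are encoded side by side and are known from endothelium and muscle, while miR-322 and miR-503 share an X-linked cluster studied in muscle differentiation.

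The mature sequences are shown because the members are defined by them. They come from RefSeq (GRCm38.p6), run 5′ to 3′, and carry bases 2 to 8 in capitals.
miR-15a-5p: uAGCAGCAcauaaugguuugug
miR-15b-5p: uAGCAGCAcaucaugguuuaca
miR-16-5p: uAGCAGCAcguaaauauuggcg
miR-195a-5p: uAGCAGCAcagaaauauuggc
miR-497a-5p: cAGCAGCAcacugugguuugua
miR-322-5p: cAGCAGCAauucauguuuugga
miR-503-5p: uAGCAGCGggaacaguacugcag
miR-322-3p: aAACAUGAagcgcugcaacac

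The first 6 of these miRNAs share all 7 seed bases. miR-503-5p shares bases 2 to 7 only, and miR-322-3p has another seed. Of the 1396 listed miRNAs, 1180 had a RefSeq mature sequence, and 8 of those (0.678%) carried AGCAGC at bases 2 to 7. The only one of the 8 that is not a member is miR-195b, whose first 16 bases are those of miR-195a-5p. It had 0.27 CPM (reads scaled to the same library total in every library, the unit of the table) in bone cancer pain 4 and 0 CPM in every other library, where a count of 0 allows up to 0.222 to 0.390 CPM. Outside the seed the members diverge. miR-16-5p and miR-195a-5p had the same base at 19 of 21 positions and miR-15a-5p and miR-15b-5p at 18 of 22, while miR-16-5p and miR-497a-5p had the same base at 11 of 22.

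The members come from 8 hairpins on 4 chromosomes, each pair of hairpins lying close together (GRCm38, GENCODE M21). Mir16-1 (chr14:61631880-61631972) and Mir15a (chr14:61632027-61632110) stand 54 nt apart on the minus strand within Dleu2. Mir15a is intronic, and Mir16-1 overlaps an annotated Dleu2 exon. Mir15b (chr3:69009772-69009835) and Mir16-2 (chr3:69009902-69009996) stand 66 nt apart on the plus strand within an intron of Smc4. Mir497 (chr11:70234717-70234800) and Mir195a (chr11:70235042-70235135) stand 241 nt apart on the plus strand, outside other annotated genes. Mir503 (chrX:53053984-53054054) and Mir322 (chrX:53054255-53054349) stand 200 nt apart on the minus strand, also outside other annotated genes. Both Mir16-1 and Mir16-2 yield the same miR-16-5p, so its reads cannot be assigned to either hairpin.

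The libraries held 5220739 to 9260169 reads of listed miRNAs. The miRNAs of neural tissue and spinal cord, miR-9-5p, miR-10b-5p and miR-124-3p, summed to 174548 to 215335 CPM in bone cancer pain and 195035 to 221187 CPM in sham. The liver miRNA miR-122-5p reached at most 18.05 CPM in any library. The 7 miRNAs of the skeletal muscle list were all above the filter of 1 CPM, miR-208a-3p only through sham 1. They summed to 6068, 6100, 7184 and 16950 CPM in bone cancer pain 1 to 4 and to 29307, 24017, 5379 and 10001 CPM in sham 1 to 4. The 5 erythroid miRNAs summed to 1452 to 2387 CPM in bone cancer pain and 674 to 3419 CPM in sham. Sham 1 and sham 2 thus held the most muscle miRNA and sham 3 the most erythroid miRNA.

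miR-16-5p, the family's most abundant member, ranked 93rd of the 605 miRNAs that averaged at least 1 CPM over the 8 libraries. It had 530, 565, 542 and 658 CPM in bone cancer pain 1 to 4, against 375, 504, 506 and 556 CPM in sham 1 to 4. The groups overlapped by 1 library, with sham 4 above bone cancer pain 1 and 3, and sham 1 was the lowest of all. miR-16-5p made up 78.3% ± 0.681 of the summed CPM of the 6 members with the full seed in bone cancer pain and 78.9% ± 3.21 in sham (SD, n = 4 each). Those 6 members together came to 734 ± 80.9 CPM in bone cancer pain and 613 ± 76.6 CPM in sham, or 0.106% and 0.0896% of the CPM of all listed miRNAs.

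**Figure D1:**
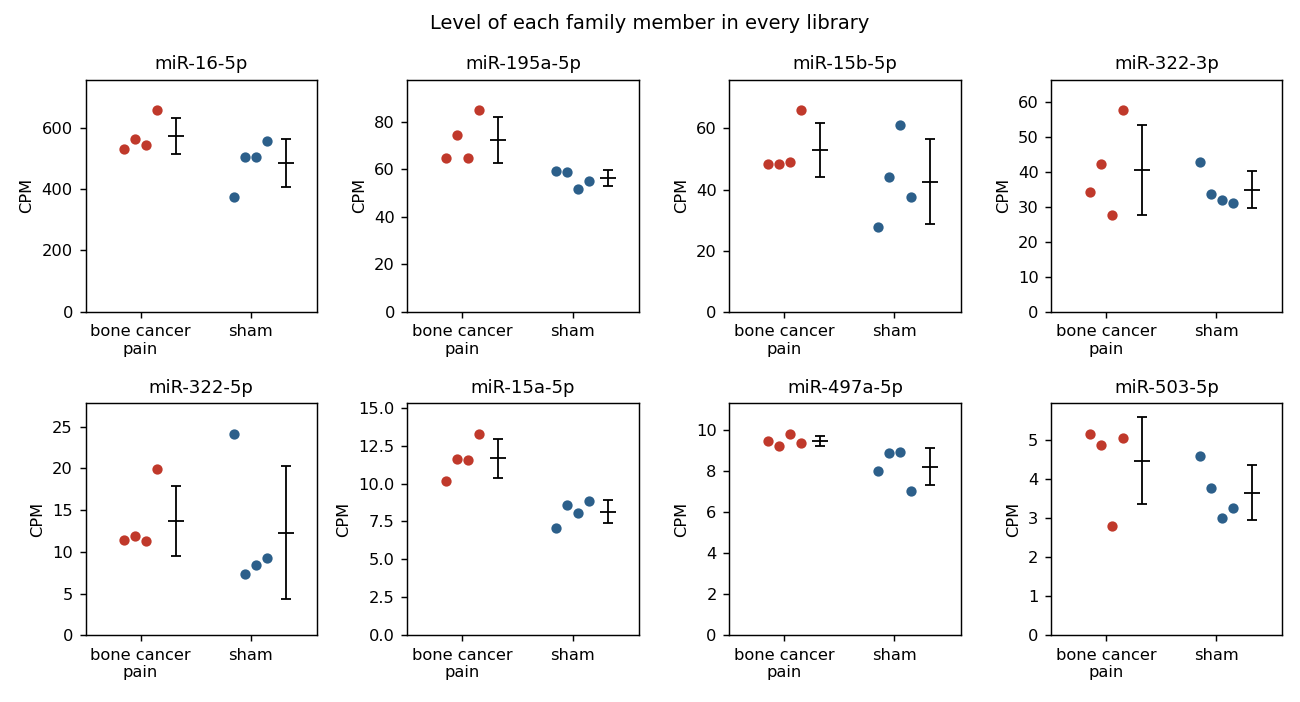
CPM (linear axis from 0) of each of the 8 members in the 4 bone cancer pain libraries (red, left) and the 4 sham libraries (blue, right), with libraries 1 to 4 from left to right in each group and the mean ± SD as a black bar. miR-15a-5p, miR-195a-5p and miR-497a-5p have every bone cancer pain library above every sham library, and miR-322-5p has 1 high library in each group.

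The order of levels over all 8 libraries was miR-16-5p, miR-195a-5p, miR-15b-5p, miR-322-3p, miR-322-5p, miR-15a-5p, miR-497a-5p and miR-503-5p. All are 21 to 23 nt long, so CPM was compared without scaling for length. A kit for small RNA is not named, and how evenly different sequences were captured was not tested. Levels and ratios of different miRNAs therefore compare reads. Each neighbour in that order was set against the next within every library, as a difference of log2(CPM + 1), by a two-sided exact permutation test over the signs of the 8 differences, adjusted over the 7 pairs. The order and its directions were read from the means of the same 8 libraries, so the p-values are not independent of that ranking and show only how the differences stand against their spread. miR-16-5p stood 3.02 ± 0.21 above miR-195a-5p (SD, n = 8, exact adjusted p = 0.0182), higher in 8 of 8 libraries. miR-195a-5p stood 0.45 ± 0.36 above miR-15b-5p (n = 8, exact adjusted p = 0.0273), higher in 7 of 8 libraries. miR-322-3p stood 1.53 ± 0.39 above miR-322-5p and miR-497a-5p 0.98 ± 0.29 above miR-503-5p, each in 8 of 8 libraries (exact adjusted p = 0.0182). The other neighbours did not differ beyond their spread: miR-15b-5p over miR-322-3p by 0.33 ± 0.46, miR-322-5p over miR-15a-5p by 0.28 ± 0.59 and miR-15a-5p over miR-497a-5p by 0.13 ± 0.22 (n = 8, exact adjusted p = 0.131, 0.195 and 0.173). The smallest p that 8 libraries allow is 0.00781. The call for miR-195a-5p over miR-15b-5p was lost (exact adjusted p = 0.0547) without any 1 of the bone cancer pain libraries or sham 4. The difference was then 0.42 to 0.46, near its value with all libraries, and fewer libraries allow only larger p-values.

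miR-15a-5p, from the Dleu2 locus, had 10.19, 11.61, 11.53 and 13.28 CPM in bone cancer pain 1 to 4, against 7.08, 8.59, 8.08 and 8.85 CPM in sham 1 to 4. Every bone cancer pain library lay above every sham library. The values rest on 68 to 150 reads a library. The log2 fold change of CPM + 1 was 0.47 (SE 0.15). miR-15b-5p, from the Smc4 locus, had 48.25, 48.42, 48.95 and 66.06 CPM in bone cancer pain, against 27.79, 44.15, 61.02 and 37.6 CPM in sham. Here the groups overlapped, since sham 3 exceeded 3 of the 4 bone cancer pain libraries, and the log2 fold change was 0.35 (SE 0.22).

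The paired 3p arms tell the Mir16 hairpins apart, and they ranked these loci otherwise than the miR-15 5p arms did. miR-16-1-3p, from the Dleu2 locus, had 28.48, 42.41, 21.76 and 31.7 CPM in bone cancer pain 1 to 4, against 31.74, 38.15, 34.08 and 33.56 CPM in sham 1 to 4. miR-16-2-3p, from the Smc4 locus, stayed under 1 CPM, at 0.58 to 0.86 CPM in bone cancer pain and 0.37 to 0.87 CPM in sham. Over the 8 libraries 2830 reads of miR-16-1-3p stood against 54 of miR-16-2-3p, a ratio of 52.4 (exact 95% interval 40.05 to 69.9, counting error only). By the miR-15 5p arms the order was the opposite, with 4137 reads of miR-15b-5p against 843 of miR-15a-5p, a ratio of 4.91 in favour of the Smc4 locus (exact 95% interval 4.56 to 5.29). In both contrasts the direction held in 8 of 8 libraries.

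miR-195a-5p had 64.7, 74.44, 64.79 and 85.0 CPM in bone cancer pain 1 to 4, against 59.32, 58.89, 51.91 and 55.03 CPM in sham 1 to 4. All bone cancer pain libraries lay above all sham libraries, and the log2 fold change was 0.35 (SE 0.14). Its neighbour miR-497a-5p had 9.45, 9.22, 9.83 and 9.39 CPM in bone cancer pain, against 8.01, 8.89, 8.95 and 7.03 CPM in sham. These groups did not overlap either, although the lowest bone cancer pain library, at 9.22 CPM, was close to the highest sham library, at 8.95 CPM, and the log2 fold change was 0.19 (SE 0.14). In bone cancer pain miR-497a-5p was the steadiest member, with a coefficient of variation of 2.72%, less than the 10.3% that counting error gives at its mean number of reads over the 8 libraries. miR-195a-5p outnumbered miR-497a-5p by 7.64 ± 1.14 to 1 in bone cancer pain and 6.91 ± 0.895 to 1 in sham (SD, n = 4 each).

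The arms of the Mir195a hairpin had similar CPM, and their group means differed in opposite directions. miR-195a-3p had 42.85, 52.37, 35.2 and 54.28 CPM in bone cancer pain 1 to 4, against 55.47, 53.04, 47.07 and 44.36 CPM in sham 1 to 4, a log2 fold change of -0.13 (SE 0.17). The ratio of miR-195a-5p to miR-195a-3p was therefore 1.51, 1.42, 1.84 and 1.57 in bone cancer pain, against 1.07, 1.11, 1.10 and 1.24 in sham. No bone cancer pain library was as low as the highest sham library. This ratio contains a member and comes from the contrast known when the family was chosen, so it has no test.

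**Figure D2:**
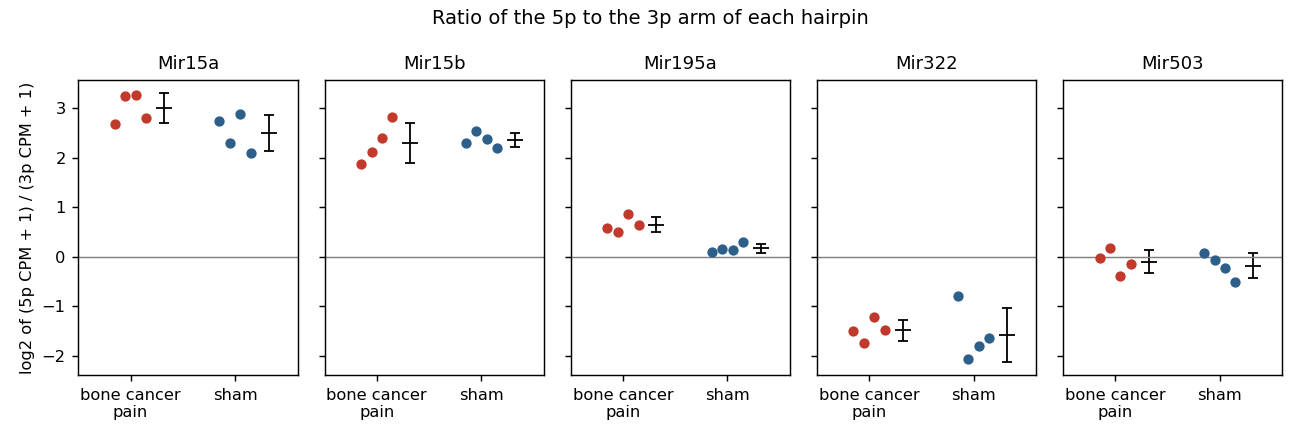
Log2 of the ratio of the 5p to the 3p arm (CPM + 1 on each side) for 5 hairpins of the family, in the 4 bone cancer pain libraries (red, left) and the 4 sham libraries (blue, right), with the mean ± SD as a black bar and equal arms at the grey line. Mir15a and Mir15b lie above 1.8 in every library, Mir322 lies below 0 in every library, and for Mir195a the groups do not overlap.

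The ratio of 5p to 3p reads differed among the hairpins of 1 family. Mir15a gave 843 reads of the 5p arm against 53 of the 3p arm over the 8 libraries, a ratio of 15.9, and Mir15b gave a ratio of 5.57. Mir503 was close to balance, with a ratio of 0.908 (exact 95% interval 0.782 to 1.05, counting error only). Mir322 favoured the 3p arm, which does not carry the family seed, with 1084 reads of miR-322-5p against 3226 of miR-322-3p, a ratio of 0.336.

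miR-322-5p had 11.42, 11.94, 11.33 and 19.92 CPM in bone cancer pain 1 to 4, against 24.14, 7.33, 8.4 and 9.24 CPM in sham 1 to 4. Bone cancer pain 4 and sham 1 stood apart from the rest of their groups, so the groups overlapped through sham 1 alone. The log2 fold change was 0.26 (SE 0.33), or 0.076 when bone cancer pain 4 was left out and 0.62, 0.088 and 0.15 when sham 1, 2 or 3 was. miR-322-3p had 34.25, 42.32, 27.58 and 57.64 CPM in bone cancer pain, against 42.67, 33.71, 32.02 and 30.96 CPM in sham, a log2 fold change of 0.17 (SE 0.22) that became 0.33 or -0.0145 when bone cancer pain 3 or 4 was left out and 0.27 when sham 1 was. miR-503-5p, the scarcest member at 25 to 59 reads a library, had 5.16, 4.86, 2.81 and 5.05 CPM in bone cancer pain, against 4.58, 3.78, 3.01 and 3.25 CPM in sham. Its groups overlapped, with bone cancer pain 3 the lowest library of all, and its log2 fold change was 0.22 (SE 0.20), or 0.38 without bone cancer pain 3.

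Other miRNAs of the X-linked cluster were compared with miR-322 in the libraries that stood apart. miR-450a-5p, encoded in the same cluster, had 24.31, 28.41, 16.95 and 31.43 CPM in bone cancer pain 1 to 4, against 83.36, 20.15, 19.42 and 15.74 CPM in sham 1 to 4. Sham 1 was thus 3.75 times the median of the 8 libraries for miR-450a-5p and 2.12 times for miR-322-5p, but 1.10 times for miR-503-5p and 1.26 times for miR-322-3p. miR-351-5p and miR-542-3p were 1.39 and 1.41 times their medians in sham 1. In bone cancer pain 4 every tested miRNA of the cluster lay above its median, with miR-322-5p at 1.75 and miR-322-3p at 1.70 times and the others between 1.21 times (miR-503-5p) and 1.41 times (miR-450a-5p). The summed skeletal muscle miRNAs were 1.97 times their median in bone cancer pain 4 and 3.41 times in sham 1, and also 2.80 times in sham 2, where miR-322-5p was lowest at 0.644 times its median. miR-499-5p and miR-208a-3p, known from slow muscle and heart, had 326 and 12.9 CPM in sham 1 and at most 19.04 and 0.09 CPM elsewhere. With the skeletal muscle miRNAs as a covariate the log2 fold change was 0.69 for miR-322-5p, 0.37 for miR-322-3p, 0.36 for miR-503-5p, 0.45 for miR-15a-5p, 0.44 for miR-195a-5p and 0.18 for miR-497a-5p. For miR-15b-5p it was 0.16, against 0.35 without the covariate, and for miR-16-5p 0.17, against 0.25. With the erythroid miRNAs as a covariate it was 0.16 for miR-15b-5p, 0.13 for miR-497a-5p and 0.39 for miR-322-5p. The other members had 0.49 (miR-15a-5p), 0.37 (miR-195a-5p), 0.25 (miR-16-5p), 0.22 (miR-503-5p) and 0.17 (miR-322-3p).

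**Figure D3:**
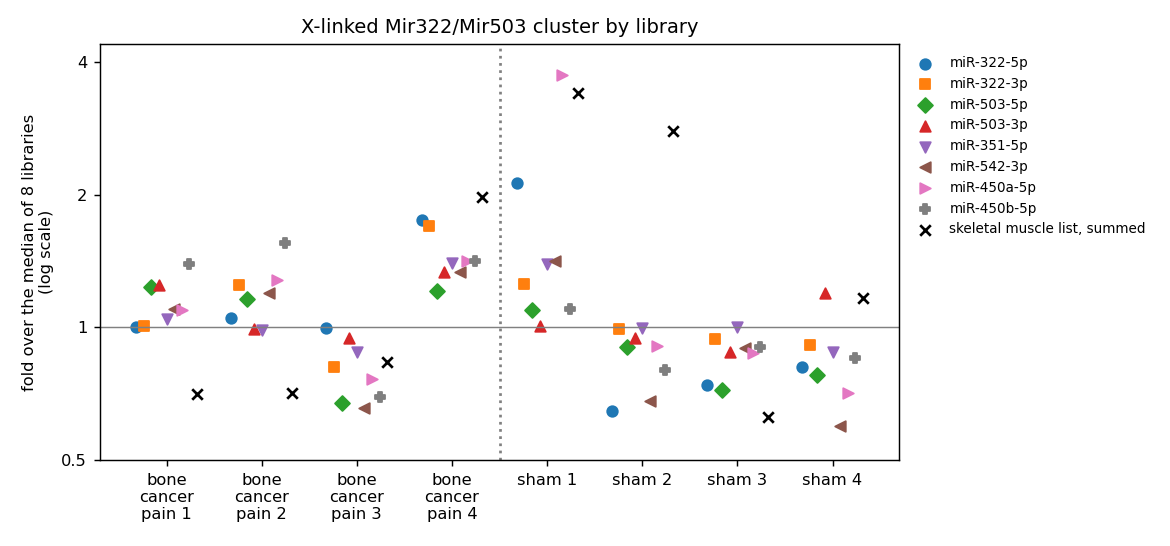
Level of each tested miRNA of the X-linked Mir322/Mir503 cluster in every library, as the fold over its own median of the 8 libraries (log axis), with bone cancer pain 1 to 4 left of sham 1 to 4 and the summed skeletal muscle miRNAs as black crosses. In sham 1 miR-450a-5p and miR-322-5p stand at 3.75 and 2.12, while in sham 2 the muscle miRNAs stand at 2.80 and miR-322-5p at 0.644.

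Across the family the log2 fold change was above 0 for 8 of 8 members, with a median of 0.26. Of all 605 miRNAs tested 48.3% were above 0, with a median of -0.007. All 8 members passed the filter of 1 CPM. limma with Benjamini-Hochberg adjustment called 0 of the 8 members, beside 0% of the 605, and the smallest adjusted p of any miRNA was 0.887. At an unadjusted p under 0.05 limma found 28 of the 605, edgeR 43 and DESeq2 31, and both count tools also called 0 after adjustment. The groups did not overlap, with bone cancer pain higher, for 3 members, miR-15a-5p, miR-195a-5p and miR-497a-5p. That was so for 1.98% of all tested. They did not overlap with bone cancer pain lower for 0 members, beside 1.65% of all tested. Since this contrast was known when the family was chosen, nothing is read from these counts. In bulk tissue a change in the share of a cell type and a change in RNA per cell cannot be told apart.

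**Figure D4:**
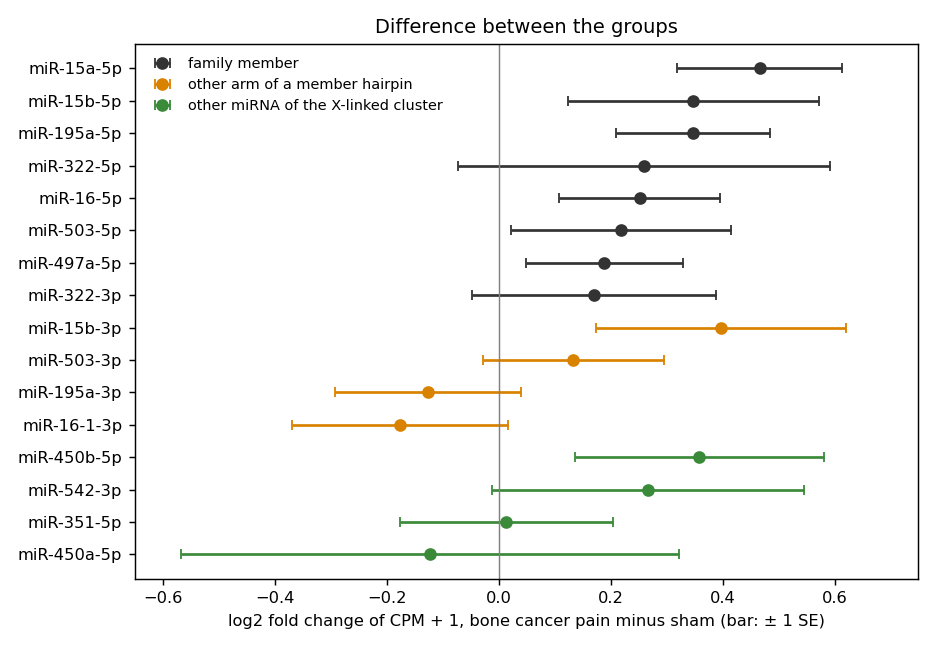
Log2 fold change of CPM + 1, bone cancer pain minus sham, with bars of ± 1 SE from the limma fit (4 libraries each), for the 8 members (black), the tested other arms of their hairpins (orange) and the other tested miRNAs of the X-linked cluster (green). All 8 members lie between 0.17 and 0.47, while miR-195a-3p, miR-16-1-3p and miR-450a-5p lie below 0.

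The other arms of the hairpins did not share the direction of the members throughout. Of the 7 in the list 6 were in the table and 4 passed the filter, of which 2 were above 0 and 2 below, with a median of 0.0031. miR-15b-3p had 12.52, 10.38, 8.53 and 8.5 CPM in bone cancer pain 1 to 4, against 4.89, 6.82, 10.94 and 7.42 CPM in sham 1 to 4, a log2 fold change of 0.40 (SE 0.22). Like miR-15b-5p it was lowest in sham 1. miR-16-1-3p had a log2 fold change of -0.18 (SE 0.19), while miR-16-5p, the other arm of that hairpin and of Mir16-2, had 0.25 (SE 0.14). Of the other 9 miRNAs of the X-linked cluster 8 were in the table and 4 passed the filter. Of these the log2 fold change was 0.36 for miR-450b-5p, 0.27 for miR-542-3p, 0.014 for miR-351-5p and -0.12 for miR-450a-5p. limma called 0 of these 8 arms and cluster miRNAs after adjustment over all 605.

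The marker miRNAs of other cell types also differed in their group means, without a call after adjustment, and their part in the differences of the members was not tested. The 5 vascular miRNAs, miR-126a, miR-143 and miR-145a arms, were above 0 in 5 of 5 cases (median on the log2 scale 0.29), and summed to 23456 to 35661 CPM in bone cancer pain and 16946 to 29480 CPM in sham. The 4 leukocyte miRNAs were above 0 in 4 of 4 cases (median 0.30), and summed to 311 to 366 CPM in bone cancer pain and 284 to 311 CPM in sham. The erythroid miRNAs were above 0 in 4 of 5 cases (median 0.61), and the skeletal muscle miRNAs were below 0 in 7 of 7 (median -0.94). Of those 7, miR-208a-3p passed the filter only through sham 1, at 12.9 CPM, so its direction followed from the filter. Of the markers in these 4 lists only miR-208a-3p was at 0 in any library.

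Loci were compared by how 2 members varied together over the 8 libraries, for 6 pairs fixed by their genes. Pooled over the groups, r includes their difference, which was known for miR-15a-5p and miR-195a-5p when the family was chosen. The p-values of pairs with these members therefore draw on that contrast. Over log2(CPM + 1), miR-15a-5p and miR-16-5p had Pearson r = 0.850 (two-sided exact permutation p = 0.00283, adjusted 0.0170) and Spearman rho = 0.905 (exact p = 0.00456, adjusted 0.0274). Within groups, as deviations from the group means, which leave that contrast out, r was 0.895. Without bone cancer pain 4 and sham 1, the libraries farthest from the median of miR-15a-5p, the first of the pair, r was 0.687 (exact p = 0.154). This cannot tell dependence on those libraries from the smaller number and narrower range of those left. The call was also lost without bone cancer pain 2 (r = 0.850, exact adjusted p = 0.0714), without bone cancer pain 4 (r = 0.771, exact adjusted p = 0.0655) and without sham 1 (r = 0.817, exact adjusted p = 0.0857).

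The other pairs did not pass. For miR-15b-5p and miR-16-5p r was 0.785 (exact p = 0.0316, adjusted 0.0907) and rho 0.548 (exact p = 0.171, adjusted 0.171), with r at 0.706 within groups and -0.457 without the 2 farthest libraries. miR-15a-5p and miR-15b-5p, from different loci, had r = 0.655 (exact p = 0.0729, adjusted 0.109) and rho = 0.595 (exact p = 0.132, adjusted 0.171), with 0.564 within groups and -0.0479 without the 2 farthest. Leaving out sham 3, where miR-15b-5p was the highest of the sham libraries, made both pass, at r = 0.904 (exact adjusted p = 0.0329) for miR-15b-5p with miR-16-5p and r = 0.934 (exact adjusted p = 0.00952) for miR-15a-5p with miR-15b-5p. That library also held the most miR-451a, an erythroid miRNA, at 2008 CPM. The other sham libraries had 285 to 658 CPM of it and the bone cancer pain libraries 710 to 1162 CPM. Whether miR-451a bears on these pairs was not tested.

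The pairs on chromosome 11 and the X chromosome, each encoded within 241 nt, did not pass either. miR-195a-5p and miR-497a-5p had r = 0.522 (exact p = 0.181, adjusted 0.181) and rho = 0.643 (exact p = 0.0962, adjusted 0.171), while r was -0.145 within groups. Here the libraries farthest from the median of miR-195a-5p were bone cancer pain 4 and bone cancer pain 2, and without them r was 0.555. The arms miR-322-5p and miR-322-3p had r = 0.720 (exact p = 0.0454, adjusted 0.0907) and rho = 0.738 (exact p = 0.0458, adjusted 0.138), with 0.700 within groups. For miR-322-5p the 2 farthest were sham 1 and bone cancer pain 4, and without them r was 0.226. miR-322-5p and miR-503-5p had r = 0.568 (exact p = 0.158, adjusted 0.181) and rho = 0.571 (exact p = 0.151, adjusted 0.171), with 0.526 within groups and 0.407 without the 2 farthest. With so few libraries these p-values do not show that the pairs vary apart.

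**Figure D5:**
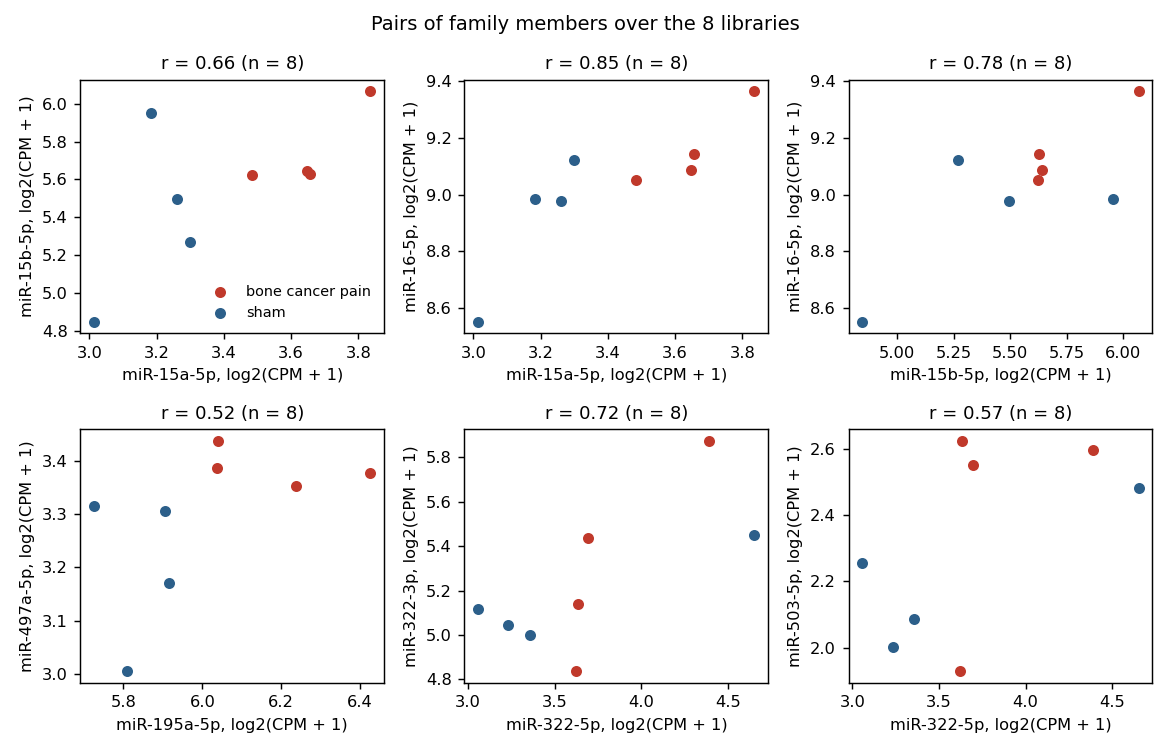
Levels of 6 pairs of members, each as log2(CPM + 1), with a point for each of the 4 bone cancer pain libraries (red) and the 4 sham libraries (blue) and Pearson r over all 8 above each panel. In the upper row, with miR-15a-5p, miR-15b-5p and miR-16-5p, bone cancer pain 4 is at the upper right and sham 1 at the lower left of every panel.

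The miRNAs most like each member over the 8 libraries were ranked by Pearson r of log2(CPM + 1) among those of the 605 outside the family. They are given as a description, since all were measured in the same libraries and were picked as the highest of many. For miR-15a-5p they were miR-30b-5p (r = 0.935), miR-483-5p (0.918) and miR-26b-5p (0.884). For miR-15b-5p they were miR-25-3p (0.920), miR-669f-3p (0.914) and miR-93-5p (0.911), and for miR-16-5p miR-93-5p (0.909), miR-26b-5p (0.908) and miR-574-5p (0.878). All miRNAs named here for miR-15a-5p and miR-16-5p exceeded r = 0.850, the value between those members. miR-25 and miR-93 are encoded together in an intron of Mcm7. miR-195a-5p was most like miR-23a-3p (0.900), miR-145a-3p (0.880) and miR-1969 (0.863), and miR-497a-5p most like miR-142a-5p (0.904), miR-106a-5p (0.857) and miR-363-3p (0.854). For miR-322-5p they were miR-224-5p (0.884), miR-126a-3p (0.881) and miR-184-3p (0.875). The lists of the neighbours miR-195a-5p and miR-497a-5p had no miRNA in common, while those of miR-15b-5p and miR-16-5p shared miR-93-5p and those of miR-15a-5p and miR-16-5p shared miR-26b-5p.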

How the data were processed

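Small RNA of left spinal cord was sequenced in 4 bone cancer pain and 4 sham libraries, and the authors deposited CPM of mature miRNAs, rounded to 2 decimals. The labels' protocol describes rRNA depletion and fragmentation of total RNA, and a kit for small RNA is not given in it. The submitters' processing notes name mm10, fastp, STAR, Bowtie and Salmon, with no role or version. How reads shared by similar miRNAs were assigned is not given in the sources used here. Value columns without a sample numbered 0. The members, lists and tests were chosen with earlier results of these data known.

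The CPM values, not rescaled, were turned into log2(CPM + 1). limma 3.58.1 in R 4.3.3 (mean-variance trend, two-sided, Benjamini-Hochberg, threshold 0.05) was fitted to the 605 miRNAs whose mean reached 1 CPM, and 791 were left out. A fold change on this scale understates that of miRNAs near 1 CPM. Reads were recovered from the spacing of low CPM values, and 99.8% to 100% of values above 0 were whole reads within 0.0051 CPM. For bone cancer pain 3 that spacing, 0.1003 CPM, is close to the rounding of the table. As alternatives, those reads were tested with edgeR 4.0.16 and with DESeq2 1.42.0. Reads are not independent molecules, so intervals and floors of 3 reads cover counting error only. No 2 libraries of a group agreed within sampling noise. Chi-square over degrees of freedom was 31.8 for bone cancer pain 1 and 2, the most alike, and 190 to 503 for the other pairs within a group. Exact permutation tests were enumerated in Python 3.11.15. The fit was first tested on simulated data. Named miRNAs were the members, the other arms of their hairpins, the X-linked cluster, listed miRNAs with the seed, miR-103-3p and miR-107-3p, the 3 most alike of 6 members, and markers. Alternatives covered pseudocount, filter, scaling, weights, replicate block, marker covariates, count tools and left-out libraries.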

Additional observations from a re-analysis of the deposited data

Results flagged for a closer look

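In groups of 4 libraries, 5 values stood farther from the rest of their group than Dixon's 95% limit, of 32 groups examined for members, other arms and X-linked cluster miRNAs; chance flags about 1 group in 20. In bone cancer pain 4, miR-15b-5p had 66.06 CPM and miR-322-5p 19.92 CPM, each above the other 3 libraries of that group. In bone cancer pain 3, miR-503-5p was low at 2.81 CPM. In sham 1, miR-322-5p had 24.14 CPM and miR-450a-5p 83.36 CPM, each above the other 3 sham libraries.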

How the results depend on the processing

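The count of miRNAs called was 0 under each of 23 alternatives, of which edgeR and DESeq2 on the recovered reads were 1 each and the others were limma fits. Each member kept its direction under them, except miR-322-3p, whose log2 fold change was -0.0145 without bone cancer pain 4. Leaving out 1 library gave 0.41 to 0.52 for miR-15a-5p, 0.27 to 0.40 for miR-195a-5p, 0.17 (without sham 1) to 0.53 (without sham 3) for miR-15b-5p, 0.13 (without sham 1) to 0.32 for miR-16-5p, 0.12 (without sham 4) to 0.23 for miR-497a-5p and 0.076 to 0.62 for miR-322-5p, and 0.17 to 0.31 for the summed 6 members (0.26 with all). The replicate numbers of bone cancer pain and sham did not pair the libraries: deviations of same-numbered libraries had r of -0.313 to -0.0111, and no bone cancer pain library was most like the sham library of its number. With a replicate block the log2 fold change of miR-15a-5p stayed 0.47, and limma called 0 miRNAs. miR-15a-5p, miR-497a-5p and miR-503-5p had no value with a filter of 10 CPM.

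Without sham 1 and sham 2 the level differences no longer passed. They were 3.08 for miR-16-5p over miR-195a-5p, 1.57 for miR-322-3p over miR-322-5p and 1.01 for miR-497a-5p over miR-503-5p, each higher in every library and so at the smallest exact p that 6 libraries allow, and 0.35 for miR-195a-5p over miR-15b-5p, which did not reach that p (exact adjusted p = 0.0729). Leaving out 1 library, these ran from 2.98 to 3.08, 1.46 to 1.64, 0.90 to 1.02 and 0.36 to 0.54. miR-15b-5p over miR-322-3p ran from 0.25 to 0.46 and passed without sham 1, and miR-322-5p over miR-15a-5p ran from 0.088 to 0.35 and passed without sham 2. Leaving out 1 library, r ran from 0.771 to 0.901 for miR-15a-5p with miR-16-5p, from 0.393 to 0.934 for miR-15a-5p with miR-15b-5p and from 0.407 to 0.904 for miR-15b-5p with miR-16-5p. Without sham 1 and sham 2, r of miR-15a-5p with miR-16-5p was 0.780 and did not pass. With median-of-ratios scaling r of miR-15b-5p with miR-16-5p was 0.870 and passed. As deviations from the group means, r of miR-195a-5p with miR-497a-5p was -0.145. The cause was not tested. Among the members counting limits miR-503-5p most, at as few as 25 reads a library, and miR-15a-3p and miR-16-2-3p had as few as 2 and 3.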

Other observations

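miR-103-3p and miR-107-3p, encoded in introns of the pantothenate kinase genes Pank3, Pank2 and Pank1, carry the same 6 bases 1 position earlier and so have another seed. In the lines below the capitals mark those 6 bases.
miR-103-3p: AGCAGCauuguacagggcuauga
miR-107-3p: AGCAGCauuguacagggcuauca
The level of miR-103-3p was 3379 ± 191 CPM in bone cancer pain and 3337 ± 179 CPM in sham (SD, n = 4 each), and its log2 fold change was 0.018 with a 95% interval from -0.19 to 0.23. That of miR-107-3p was 211 ± 38.5 CPM in bone cancer pain and 206 ± 22.4 CPM in sham, with a log2 fold change of 0.026 and a 95% interval from -0.31 to 0.36. Neither was called by limma after adjustment over all 605 miRNAs, and their difference from the members was not tested.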
